A study of Mus musculus with 12 samples.

Results

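Fibroblast growth factors (FGFs) are secreted ligands that bind receptor tyrosine kinases on the cell surface, and the receptors pass the signal through RAS to the kinase ERK. ERK in turn raises the transcription of its own brakes, among them the Sprouty proteins and the phosphatase Dusp6, and of the ETS transcription factors Etv4 and Etv5, so the levels of these genes are commonly read as a record of pathway activity. In the testis, FGF2 is known as a growth factor for spermatogonial stem cells and FGF9 is required for Sertoli cell differentiation in the embryo. The 10 genes described here are the receptors Fgfr1, Fgfr2 and Fgfr3, the ligands Fgf2 and Fgf9, the phosphatase Dusp6, the Sprouty genes Spry1, Spry2 and Spry4, and Etv4. They were chosen by gene symbol, with earlier results of these data known. All 10 were found among the 22180 genes of the array.

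Whole testes from mice on the C57BL/6N background, aged 2 weeks, were each hybridised to 1 Affymetrix whole-transcript array. There were 3 testes of Sox3-KO mice (KO), in which the X-linked transcription factor gene Sox3 was knocked out with CRISPR/Cas9, and 3 of Sox3-Sox2KI mice (KI), made with the same technology and named for a knock-in of the related gene Sox2 at Sox3. The controls were 6 wild-type (WT) testes, of which WT 1, WT 2 and WT 3 came from KI litters (3 arrays) and WT 4, WT 5 and WT 6 from KO litters (3 arrays). Replicates are biological per the labels, and the number of founder lines behind each mutant is not given in the sources used here.

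All levels below are log2 expression values, on which a step of 1 is a doubling. The signal of 1105 olfactory receptor genes, most of which are silent outside the nose, served as a background. Its 95th percentile, 5.33, is called the background limit below, and the median gene was at 6.27. Sox3 read 6.57 to 6.65 in KO and 7.21 to 7.36 in WT testes (limma adjusted p = 0.0161), while KI 1, KI 2 and KI 3 were 7.26, 6.75 and 6.95, so that KI 1 lay within the WT range. Sox2 was under the background limit in every array, the KI arrays included (3.81 to 4.51), and the probe positions in both genes are not known here. The measured Sox genes therefore do not check the KI label, and KI stands below for the arrays labelled so. The mean of each of 9 marker lists for testis cell types was above the background limit in every array. KO 3 stood apart from the other arrays, with a median correlation over clusters of 0.975 against 0.981 to 0.987 for the others. The mean of 15 spermatocyte markers was 7.52 to 8.34 in KO, 8.44 to 9.20 in WT and 8.45 to 8.87 in KI arrays, so KO testes carried less spermatocyte signal. In bulk tissue fewer cells of a type and less RNA per cell cannot be told apart.

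The promoters of 4 genes that had higher means in KO testes are shown because their 250 bases before the transcription start let the sequences of these receptor and feedback genes be compared. The sequences are from RefSeq (GRCm38.p6), run 5′ to 3′ on the strand of the gene, and have CG dinucleotides in capitals. They lie at chr10:99262981-99263230 (plus strand), chr3:37639697-37639946 (plus strand), chr14:105896820-105897069 (minus strand) and chr7:130266809-130267058 (minus strand).
Dusp6: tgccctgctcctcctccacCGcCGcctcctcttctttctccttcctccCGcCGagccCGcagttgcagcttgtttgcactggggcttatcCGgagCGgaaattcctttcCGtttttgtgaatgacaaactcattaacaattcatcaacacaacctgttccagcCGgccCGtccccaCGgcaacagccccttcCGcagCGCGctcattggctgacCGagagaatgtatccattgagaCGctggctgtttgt
Spry1: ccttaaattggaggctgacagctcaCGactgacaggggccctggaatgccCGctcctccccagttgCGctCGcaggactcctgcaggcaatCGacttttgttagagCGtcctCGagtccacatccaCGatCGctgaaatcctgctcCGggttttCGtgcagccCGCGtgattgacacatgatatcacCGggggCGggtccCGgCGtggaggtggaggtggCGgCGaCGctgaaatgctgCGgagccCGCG
Spry2: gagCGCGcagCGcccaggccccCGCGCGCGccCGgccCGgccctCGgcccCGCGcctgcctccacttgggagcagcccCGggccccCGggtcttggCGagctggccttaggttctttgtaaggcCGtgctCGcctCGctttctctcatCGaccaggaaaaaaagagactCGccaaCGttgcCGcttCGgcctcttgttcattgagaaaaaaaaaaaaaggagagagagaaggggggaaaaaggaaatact
Fgfr2: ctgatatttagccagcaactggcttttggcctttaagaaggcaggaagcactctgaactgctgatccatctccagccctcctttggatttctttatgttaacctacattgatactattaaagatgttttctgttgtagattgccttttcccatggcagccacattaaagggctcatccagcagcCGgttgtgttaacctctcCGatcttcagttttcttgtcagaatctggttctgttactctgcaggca

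Spry1 and Spry2 each held 23 CG dinucleotides in this stretch and Dusp6 held 16, whereas Fgfr2 held 2. Over the full window of 300 bases, which adds 50 bases after the start, Spry1 had 29, Spry2 28, Dusp6 19 and Fgfr2 4 CG dinucleotides, against a median of 7 over 32851 promoters. The remaining members with an entry, Fgf2 (24), Fgf9 (12) and Fgfr3 (26 and 30 at its 2 starts), were above that median as well. Entries were matched for 7 of the 10 members, leaving out Fgfr1, Spry4 and Etv4. The words AACAAAG and AACAATG, forms of the SOX binding motif, were searched on both strands and occurred in 9.36% of all promoters and in none of the 8 promoters of the members. The ETS words CCGGAAG and CAGGAAG, searched the same way, occurred in 20.9% of all promoters and in 2 of these 8. They were at bases 42 to 48 of the Fgfr2 window and, after the start, at bases 291 to 297 of the Fgf2 window. A match describes the letters of the window and not a bound site.

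The question put to the KO testes was how loss of Sox3 is reflected in these genes. Of the 10 members, 9 had a higher mean in KO than in WT testes, with differences from 0.06 (Fgf9) to 0.57 (Fgfr2), and Fgfr3 had a lower one. None passed limma's test adjusted over all genes, where 4.86% of the 22180 genes passed (adjusted p under 0.05, 558 higher and 520 lower in KO). The nearest was Dusp6, with an adjusted p of 0.0508. At an unadjusted p under 0.05 there were 6 of 10 members, against 24.2% of all genes. The 3 KO arrays lay wholly above the 6 WT arrays for 4 members, against 11.5% of all genes whose KO and WT arrays did not overlap. The median difference over the members was 0.23, beside 0.04 over all genes. Because the members were chosen with earlier results of these data known, the shares set beside all genes are a description and not a test.

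**Figure D1:**
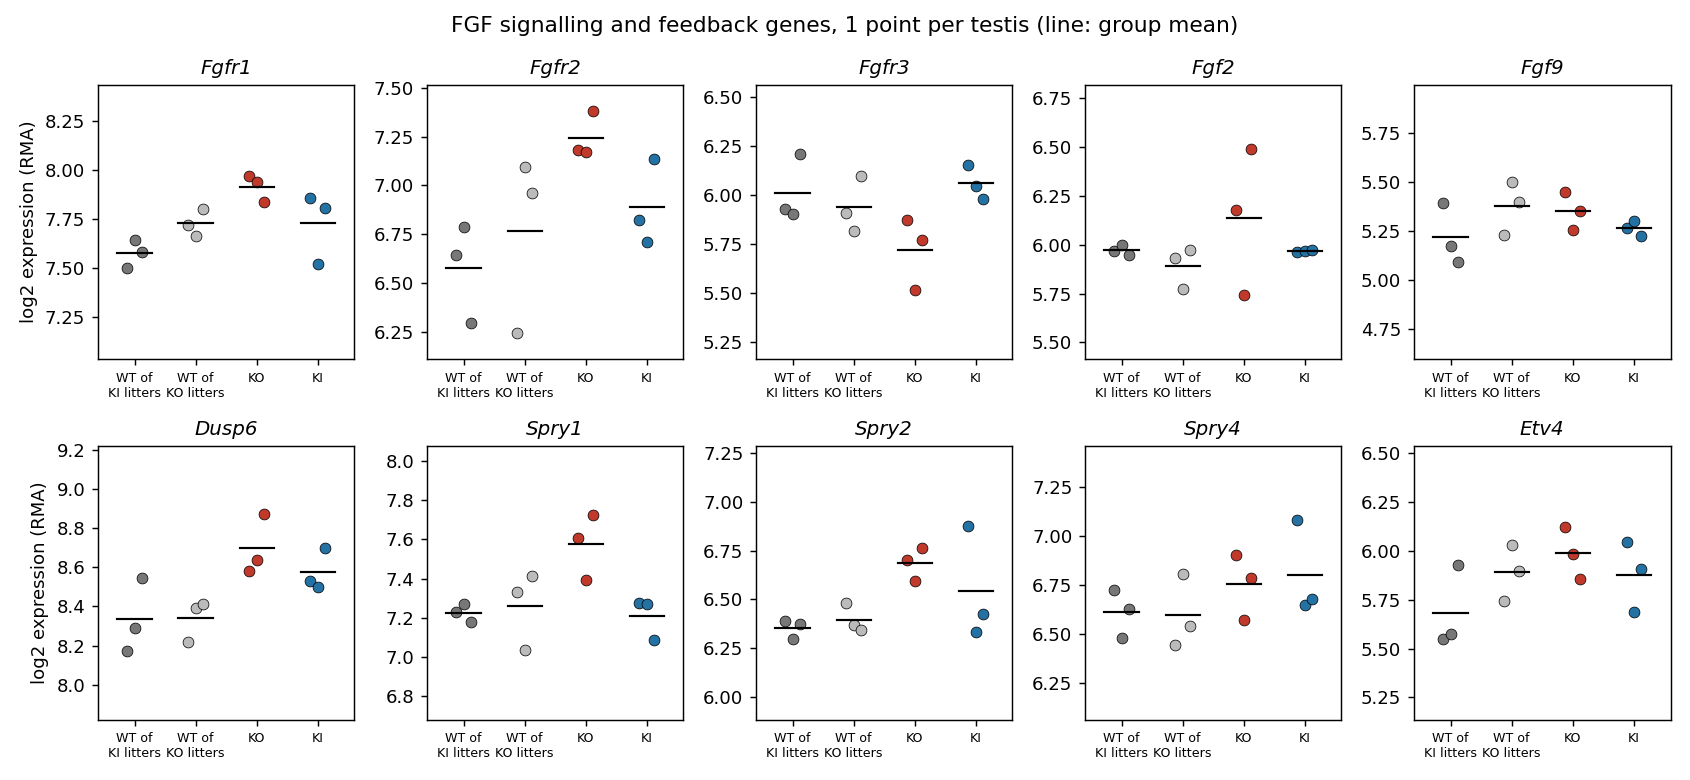
Log2 expression (vertical axis, 1.4 units in every panel) of the 10 genes in each testis, by group, with a line at each group mean. The KO points of Fgfr1, Fgfr2, Dusp6 and Spry2 lie above all WT points, and KI 1 is the highest point for Spry2 and Spry4.

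Among the receptors, Fgfr1 and Fgfr2 had higher means in KO testes and Fgfr3 a lower mean, none past the test. Fgfr1, the receptor with the widest known range of expressing cells, was 7.97, 7.94 and 7.84 in KO 1, KO 2 and KO 3, against a lowest, median and highest WT value of 7.50, 7.65 and 7.80. All KO arrays were above all WT arrays, with KO 3 close to WT 6. The difference was 0.26 (SE 0.09, 95% interval 0.07 to 0.45, limma adjusted p = 0.0934).

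Fgfr2, whose splice forms answer to different sets of FGFs in epithelia and mesenchyme, was 7.18, 7.17 and 7.38 in the KO arrays. In WT it ranged from 6.25 through a median of 6.72 to 7.09, the widest WT range of any member, with WT 3 and WT 4 low and WT 5 high. The KO arrays did not overlap it, and the difference was 0.57 (SE 0.18, 95% interval 0.19 to 0.96, limma adjusted p = 0.0757), a 1.49-fold higher level. The array values do not separate splice forms, since each gene was read as a whole transcript cluster.

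Fgfr3, a receptor reported in undifferentiated spermatogonia of primates, was 5.87, 5.52 and 5.77 in KO and 5.82, 5.92 and 6.21 at the lowest, median and highest WT value. KO 1 lay within the WT range and the other two KO arrays below it. The difference was -0.26 (SE 0.10, 95% interval -0.48 to -0.04, limma adjusted p = 0.141). Its levels were above the background limit of 5.33 in all arrays, though KO 2 was near it.

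The ligands showed no separation of the groups. Fgf2 was 6.18, 5.74 and 6.49 in the KO arrays, so that KO 2 lay below all 6 WT arrays (5.77 to 6.00, median 5.96) and the other two above them. The difference of 0.20 (SE 0.12, limma adjusted p = 0.337) was 0.40 without KO 2 (adjusted p = 0.021) and 0.03 without KO 3 (adjusted p = 0.923). Fgf9 was 5.45, 5.26 and 5.35 in KO and 5.09 to 5.50 in WT arrays (median 5.31), a difference of 0.06 (SE 0.09, adjusted p = 0.76). These Fgf9 levels surround the background limit, so a difference in this gene could not have been measured well here.

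Dusp6, the phosphatase that removes the activating phosphates from ERK, was 8.58, 8.64 and 8.87 in KO testes, against 8.17, 8.34 and 8.55 at the lowest, median and highest WT value. All KO arrays were above all WT arrays, although KO 1 and WT 3 were close. The difference was 0.36 (SE 0.10, 95% interval 0.15 to 0.57), a 1.28-fold higher level that did not pass the adjusted test (limma adjusted p = 0.0508). It passed under 7 of 22 alternative settings, among them the fit on genes at or above the median level (adjusted p = 0.0178) and the fits without WT 6 (0.0448) or KO 2 (0.0497), and its difference lay between 0.27 and 0.42 under all 22. The adjusted p was 0.129 without KO 1 and 0.211 without KO 3. Against the KO littermates alone the difference was 0.36 (adjusted p = 0.199). A second, dim Dusp6 cluster with a mean of 3.80, under the background limit, was not used in the reported fit. It entered the alternative that takes the mean of a gene's clusters (difference 0.39, limma adjusted p = 0.0376), which is among the 7 that passed.

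Among the Sprouty genes, whose products hold back receptor tyrosine kinase signalling, the difference between KO and WT was 0.33 for Spry1, 0.31 for Spry2 and 0.15 for Spry4. Spry1 was 7.61, 7.39 and 7.73 in KO and 7.03, 7.25 and 7.41 at the lowest, median and highest WT value, so KO 2 lay inside the WT range. Its difference had an SE of 0.10 (95% interval 0.13 to 0.54, limma adjusted p = 0.0612), and the adjusted p was 0.0243 without KO 2 and 0.0382 without WT 6. It was 0.179 without KO 1, 0.238 without KO 3 (difference 0.26) and 0.233 against the KO littermates alone.

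Spry2 was 6.70, 6.59 and 6.76 in KO arrays, above all WT arrays (6.30 to 6.48, median 6.37), whose spread was small. Its difference was 0.31 (SE 0.10, 95% interval 0.09 to 0.53, limma adjusted p = 0.0929), and the adjusted p was 0.0398 without KI 1, which enters the estimate of the spread. Spry2 passed under 2 of 22 alternative settings. The adjusted p was 0.219 without KO 1, 0.279 without KO 3 and 0.288 against the KO littermates alone. Spry4 was 6.91, 6.58 and 6.79 in KO and 6.44 to 6.81 in WT arrays (median 6.59), with KO 2 and KO 3 inside the WT range. Its difference of 0.15 (SE 0.12, adjusted p = 0.468) was within the spread between replicates.

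Etv4, an ETS transcription factor induced by FGF signalling in many tissues, was 6.12, 5.98 and 5.86 in KO and 5.55 to 6.03 in WT arrays (median 5.82). The groups overlapped and the difference was 0.20 (SE 0.12, limma adjusted p = 0.333). The Etv4 difference was 0.31 against the WT testes of KI litters and 0.10 against those of KO litters, since the WT littermates of KI mice were lower (5.68) than those of KO mice (5.89).

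**Figure D2:**
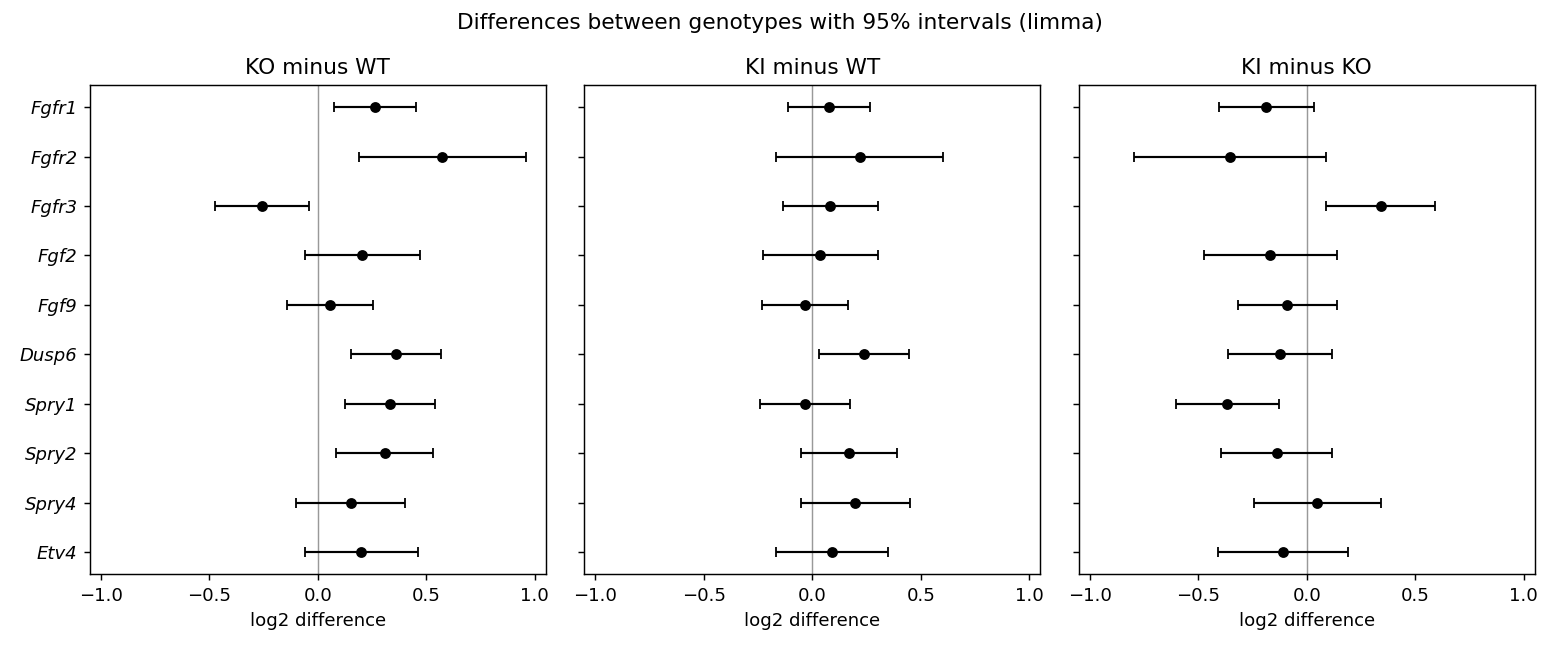
Differences in log2 expression (horizontal axis) between genotypes for the 10 genes, as points with 95% intervals from limma. In KO minus WT the intervals of 6 genes leave out 0, in KI minus WT that of Dusp6 only, and none passed after adjustment over all genes.

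The Dusp6 level was followed most closely by Trio, which encodes a guanine nucleotide exchange factor, with a Pearson r of 0.965 over the 12 arrays. AI414108 (0.915) and the pseudokinase scaffold gene Peak1 (0.914) came next among the 22180 genes. The points share the arrays and the genotype groups, and these values are a description.

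The rest of the pathway was read from gene lists. Of 13 other receptors and co-receptors 3 rose in KO testes, none fell and 10 did not pass, where 2.52% of all genes rose and 2.34% fell. All 3 encode cell surface heparan sulphate proteoglycans, which hold FGFs near their receptors. Many genes of this list belong to that class. Sdc1, Sdc2, Sdc3 and Gpc1, also of the class, did not pass (differences -0.07, 0.24, 0.43 and 0.16). Gpc4, a glypican, was 8.75, 8.83 and 9.03 in KO and 8.43 to 8.69 in WT arrays (median 8.45), a difference of 0.38 (SE 0.08, limma adjusted p = 0.0326). Sdc4, a syndecan, was 10.88, 10.76 and 10.98 in KO and 10.26 to 10.61 in WT arrays (median 10.47), a difference of 0.41 (SE 0.09, adjusted p = 0.0358). Gpc3, another glypican, was 8.85, 8.24 and 8.43 in KO and 7.86 to 8.24 in WT arrays (median 8.06), a difference of 0.47 (SE 0.12, adjusted p = 0.048). KO and WT arrays did not overlap for any of the 3, though KO 2 and WT 6 were level for Gpc3 at the precision printed. The list median was 0.16.

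Of 19 other ERK feedback and target genes measured (of 20 listed), 2 rose in KO testes and none fell, which leaves 17 that did not pass. The list median was 0.17. Etv5, the close relative of Etv4 that is known for its role in spermatogonial stem cell renewal, was 8.09, 8.04 and 8.06 in KO and 7.51 to 7.86 in WT arrays (median 7.70). The KO arrays were tightly grouped above all WT arrays, and the difference was 0.35 (SE 0.08, limma adjusted p = 0.0353). Il17rd, which encodes the FGF antagonist also called SEF, was 7.18, 6.97 and 7.32 in KO and 6.57 to 7.05 in WT arrays (median 6.68), so KO 2 lay below WT 4. The difference was 0.42 (SE 0.11, adjusted p = 0.0419). Etv5 also stands in the list of undifferentiated spermatogonia, of which 3 of 12, Etv5 among them, rose and 1 fell in KO testes. Among all genes 2.52% rose and 2.34% fell. Against the KO littermates alone 1 of these 12 rose and 1 fell.

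None of the 20 other FGF ligands passed in KO testes (2 at an unadjusted p under 0.05, against 24.2% of all genes). Their median difference was 0.11. The 2 with the highest signal, the intracellular family member Fgf11 and Fgf22, differed by -0.02 and 0.11 (adjusted p = 0.943 and 0.52). None of the 15 adaptors and kinases measured passed either (3 at an unadjusted p under 0.05, against the same 24.2%). Their median difference was 0.05, and the other genes of that list were not analysed here. The RAS GTPase-activating protein gene Rasa1 and the RAS exchange factor gene Sos2, those with the highest signal, differed by -0.22 and 0.00 (adjusted p = 0.116 and 0.982).

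**Figure D3:**
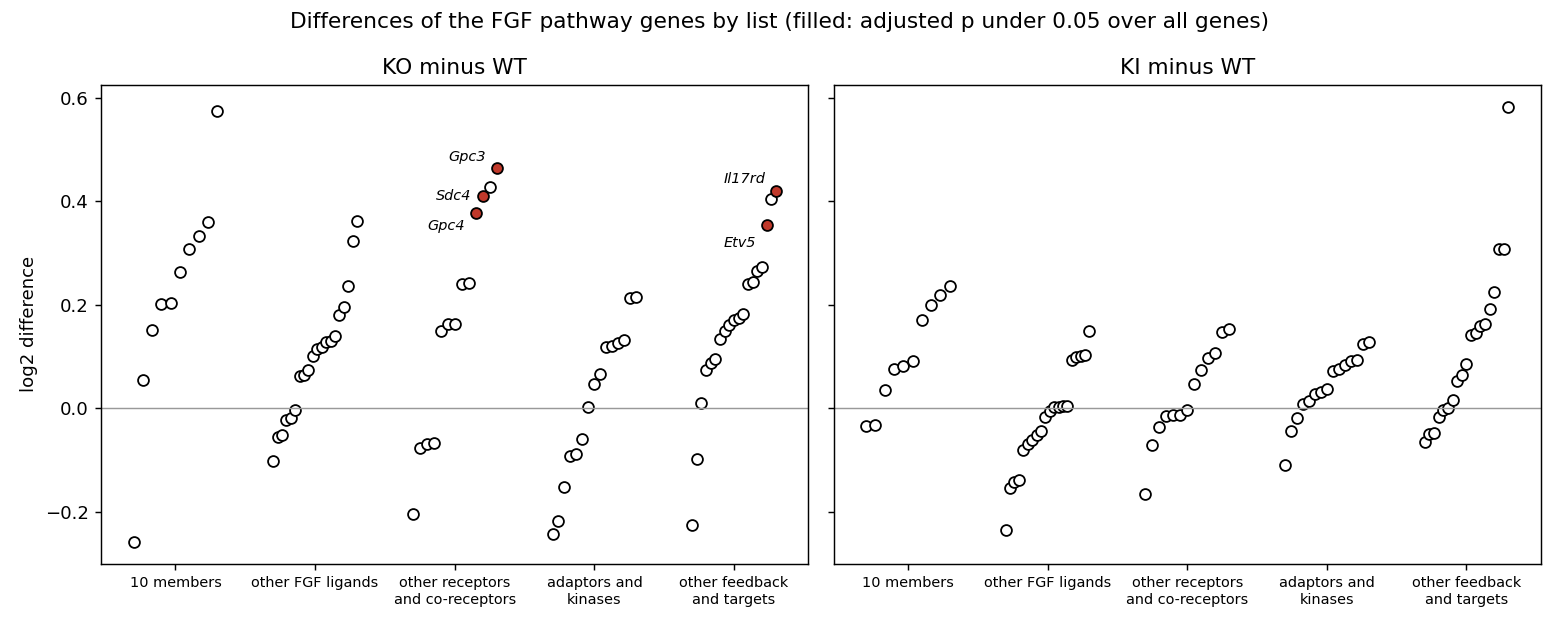
Log2 difference of every measured FGF pathway gene from WT (vertical axis) in KO testes (left) and KI testes (right), by list, with genes at an adjusted p under 0.05 filled. The filled genes are Gpc3, Gpc4 and Sdc4 among co-receptors and Etv5 and Il17rd among feedback genes, in KO testes, and none is filled in KI testes.

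These 5 calls did not hold under every setting. They were all lost without WT 1, WT 2, WT 3 or WT 5 as well, where 36, 35, 18 and 32 genes passed in all. None of the 5 passed against the KO littermates alone (adjusted p from 0.155 to 0.218), where 0.00902% of all genes passed, nor without KO 1 (0.109 to 0.177) or KO 3 (0.149 to 0.186). Over all genes 3 passed without KO 1 and 2 without KO 3.

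Markers of several cell types moved with the KO difference. Of 15 measured spermatocyte markers 13 fell in KO testes, none rose and 2 did not pass, where 2.34% of all genes fell. None of these 15 passed against the KO littermates alone, where 0.00902% of all genes passed. Against all 6 WT arrays, 2 of 13 Sertoli cell and 2 of 9 fibroblast markers rose. So did 1 of 9 peritubular and 1 of 6 Leydig cell markers, and no marker of these lists fell. The share of all genes that rose was 2.52%. Of the 6 Leydig markers 2 had lower means in KO, and of 7 differentiating spermatogonia markers 6 did, with none past the test. Against the KO littermates alone no marker of these lists passed. The mean of 13 Sertoli cell markers was 9.49 to 9.75 in KO and 9.28 to 9.49 in WT arrays, that of 9 interstitial fibroblast markers 9.45 to 9.88 and 9.15 to 9.53, and that of 9 peritubular and smooth muscle markers 8.36 to 8.47 and 8.18 to 8.33. The Leydig means (8.91 to 9.14 in KO, 7.95 to 9.09 in WT) and macrophage means (6.94 to 7.24 and 6.91 to 7.20) overlapped more, and none of 8 endothelial or 8 macrophage markers passed. With the spermatocyte marker mean added to the fit as a covariate, a setting chosen after the data were seen, the KO differences were 0.01 for Spry1 (SE 0.13), 0.06 for Spry2 (SE 0.16), 0.10 for Fgfr1 (SE 0.15), 0.33 for Dusp6 (SE 0.17), 0.70 for Fgfr2 (SE 0.32) and -0.56 for Fgfr3 (SE 0.15). The same fit gave 0.41 for Etv5, 0.34 for Gpc4, 0.12 for Il17rd, 0.08 for Sdc4 and 0.04 for Gpc3. Only 1 of all genes passed in that fit, where the covariate itself was lower in all KO arrays than in all WT arrays.

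The Spry1 values can be set beside these markers array by array. In WT 5, which had the lowest Spry1 level (7.03), the spermatocyte mean was 9.14 and the fibroblast mean 9.15, the lowest fibroblast value of all 12 arrays. In WT 6, with the highest WT level (7.41), these means were 8.44 and 9.49. KO 3, at 7.73, had 7.60 and 9.88. KI 1 had means close to those of WT 6 (8.449 and 9.485) but a lower Spry1 level of 7.27. The fibroblast list was not alone. Over the 12 arrays the Pearson r of Spry1 was 0.94 with its mean, 0.91 with the Sertoli mean and 0.88 with the peritubular mean. It was -0.9 with the spermatocyte mean. The arrays include the genotype groups, so these r values hold the group differences and are a description. Spry1 had the highest r of all members with the fibroblast mean, with Fgf2 at 0.83, Dusp6 at 0.47 and Fgfr2 at 0.25. The part of the fibroblast markers in the Spry1 difference was not tested. The part of the spermatocyte markers and that of the genotype cannot be told apart in the covariate fit, since all KO arrays were lower in the covariate than all WT arrays.

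**Figure D4:**
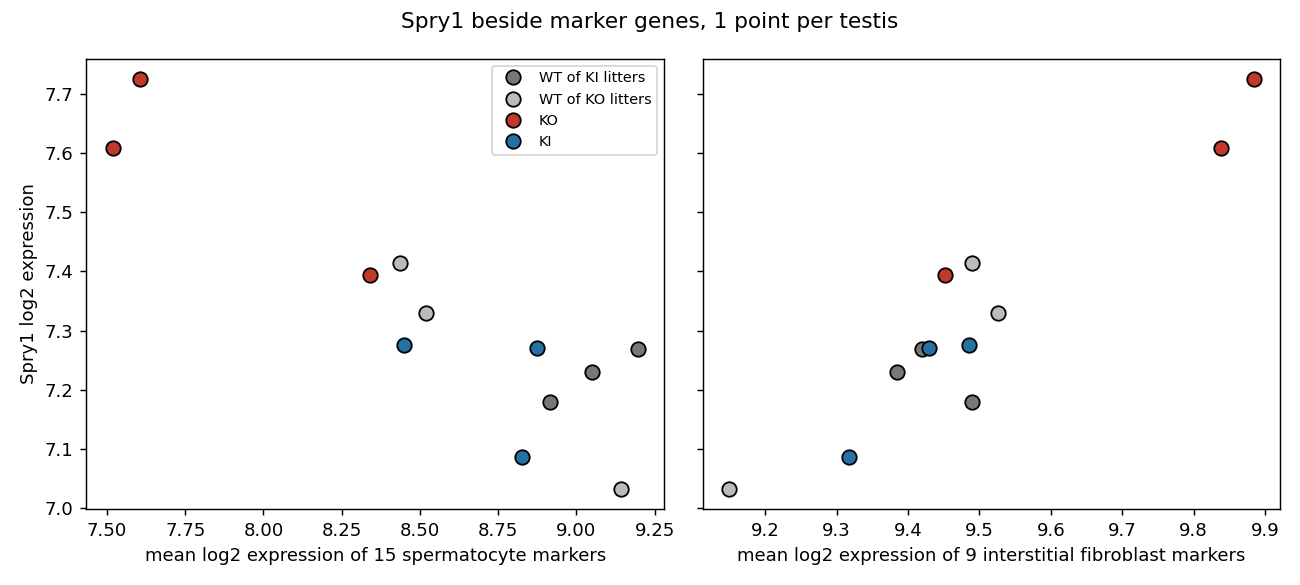
Spry1 log2 expression (vertical axis) against the mean log2 expression of 15 spermatocyte markers (left) and 9 interstitial fibroblast markers (right), with 1 point for each testis coloured by group. KO 1 and KO 3 lie at low spermatocyte and high fibroblast values with the highest Spry1 levels, and WT 5 has the lowest Spry1 level and the lowest fibroblast mean.

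The KI testes tested how the line named for a Sox2 knock-in compared with WT. No gene among the 22180 passed in KI against WT (limma, 0% at an adjusted p under 0.05, 1163 genes or 5.24% at an unadjusted p under 0.05), and so no member did. A p that misses the threshold does not show that values were equal, and this comparison shares its 6 WT arrays with the KO comparison. Of the 10 members 8 had a higher mean in KI than in WT, the median difference was 0.09 beside -0.001 over all genes, and 1 member had an unadjusted p under 0.05. That member was again Dusp6, at 8.53, 8.50 and 8.70 in KI 1, KI 2 and KI 3. These values overlapped the WT range of 8.17 to 8.55, and the difference was 0.24 (SE 0.10, 95% interval 0.03 to 0.45, limma adjusted p = 0.945), or 0.26 without KI 1. No member had KI arrays wholly outside the WT range, against 3.1% of all genes.

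Spry2 and Spry4 had their highest value of all 12 arrays in KI 1. Spry2 was 6.87, 6.33 and 6.43 in the KI arrays, and its difference from WT of 0.17 (SE 0.10) was 0.01 without KI 1. Spry4 was 7.08, 6.65 and 6.68, and its difference of 0.20 (SE 0.12) was 0.06 without KI 1. Neither passed with all arrays (adjusted p = 0.976 for each).

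The receptors and ligands of KI testes lay within or close to the WT range. Fgfr1 was 7.86, 7.52 and 7.81, a difference of 0.08 (95% interval -0.11 to 0.27), with KI 1 and KI 3 just above the WT range. Fgfr2 was 6.83, 6.71 and 7.14, a difference of 0.22 (95% interval -0.17 to 0.60), and Fgfr3 was 6.15, 6.05 and 5.98, a difference of 0.08 (95% interval -0.14 to 0.30). Fgf2 was 5.96, 5.97 and 5.97, the tightest group of any member, and differed by 0.04 (95% interval -0.23 to 0.30). Fgf9 was 5.27, 5.30 and 5.23, at the background limit, and differed by -0.03. Spry1, at 7.27, 7.27 and 7.09, differed by -0.03 (95% interval -0.24 to 0.18) and Etv4, at 6.04, 5.68 and 5.90, by 0.09 (95% interval -0.17 to 0.35).

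In the other pathway lists no gene passed in KI testes. The smallest p belonged to Egr1, an immediate-early transcription factor induced by ERK that was singled out after its values were seen, at 8.53, 7.68 and 7.59 in KI and 7.11 to 7.57 in WT arrays (median 7.33). All KI arrays were above all WT arrays, against 3.1% of all genes without overlap, though KI 3 and WT 3 were close. The KO arrays lay at 7.33 to 7.59. The KI difference from WT was 0.58 (SE 0.18, limma adjusted p = 0.945), or 0.28 without KI 1. Gpc4, Sdc4 and Gpc3 differed by 0.15, 0.11 and -0.07 in KI testes and Etv5 and Il17rd by 0.14 and -0.02, none past the test.

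The KI arrays were also set directly against the KO arrays, which bears on whether the 2 mutants of the Sox3 locus differed. No member and no other gene passed (limma, 0% at an adjusted p under 0.05, 3993 genes or 18% at an unadjusted p under 0.05). Of the members 8 were lower in KI than in KO on average, and 2 had an unadjusted p under 0.05. Spry1 was lower in KI by 0.37 (difference -0.37, SE 0.11, 95% interval -0.61 to -0.13, adjusted p = 0.154), with all KI arrays below all KO arrays, and the difference was -0.40 without KI 1 and -0.09 with the spermatocyte covariate. Fgfr3 was higher in KI by 0.34 (SE 0.12, 95% interval 0.09 to 0.59, adjusted p = 0.186), again with no overlap. Fgfr2 was the remaining member without overlap, at -0.36 (SE 0.20, adjusted p = 0.377). The share of all genes without overlap between KI and KO was 22.1%, and 3 of the 10 members were among them. For Dusp6 the difference was -0.12 (95% interval -0.36 to 0.12), for Spry4 0.05 (-0.24 to 0.34) and for Etv4 -0.11 (-0.41 to 0.19), so the intervals of these genes held differences of either sign.

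The litter origin of the WT testes was compared because it is the control available inside the WT group. No member and no other gene passed (limma, 0% at an adjusted p under 0.05), and no member had an unadjusted p under 0.05, against 5.29% of all genes. The differences, WT of KI litters minus WT of KO litters, lay between -0.21 (Etv4) and 0.08 (Fgf2). Fgfr1 was the member whose WT groups did not overlap, at 7.50 to 7.64 in KI litters and 7.66 to 7.80 in KO litters, a difference of -0.15 (SE 0.10, adjusted p = 0.891), against 11.7% of all genes without overlap. Dusp6 had nearly equal means of 8.34 in both.

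Each mutant was also set against its own littermates. For KO, where 4 of 10 members had an unadjusted p under 0.05 against 15.7% of all genes and none passed, the differences were 0.48 for Fgfr2 (SE 0.21), 0.36 for Dusp6 (SE 0.12), 0.32 for Spry1 (SE 0.11), 0.29 for Spry2 (SE 0.12) and 0.19 for Fgfr1 (SE 0.10). For KI they were 0.32 for Fgfr2 (SE 0.21), 0.24 for Dusp6 (SE 0.12), -0.02 for Spry1 (SE 0.11), 0.19 for Spry2 (SE 0.12) and 0.15 for Fgfr1 (SE 0.10). The difference between these mutant effects (KI minus KO) passed for no member and no other gene (limma, 0% at an adjusted p under 0.05), and no member had an unadjusted p under 0.05, against 5.83% of all genes. It was largest for Spry1, at -0.33 (SE 0.16, 95% interval -0.69 to 0.02, limma adjusted p = 0.848), and was -0.12 for Dusp6 (SE 0.16, 95% interval -0.47 to 0.24).

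The high Spry2 and Spry4 values of KI 1 stood beside high values of some, but not all, other ERK-responsive genes in that testis. It had the highest level of all 12 arrays for 8 of the 19 other ERK feedback and target genes, against 6.24% of all genes, a count made after the values were seen. Ier3, an immediate-early gene, was 7.63 in KI 1, against 6.47 and 6.65 in KI 2 and KI 3 and 6.48 to 6.70 in WT arrays. Fos, a subunit of the AP-1 transcription factor, was 6.58 in KI 1, 5.53 and 5.65 in KI 2 and KI 3, and 5.47 to 6.20 in WT arrays. Dusp5, a nuclear ERK phosphatase, was 7.07, 6.61 and 6.62 in the KI arrays and 6.50 to 6.85 in WT arrays. Dusp1 was 8.22, 7.50 and 8.05 in the KI arrays and 7.44 to 7.73 in WT arrays, so KI 3 was high as well. The feedback and target genes Dusp6, Spry1, Etv5 and Il17rd lay within the WT range in KI 1. Dusp6 was 8.53 there (WT 8.17 to 8.55), Spry1 7.27 (7.03 to 7.41), Etv5 7.82 (7.51 to 7.86) and Il17rd 6.72 (6.57 to 7.05).

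**Figure D5:**
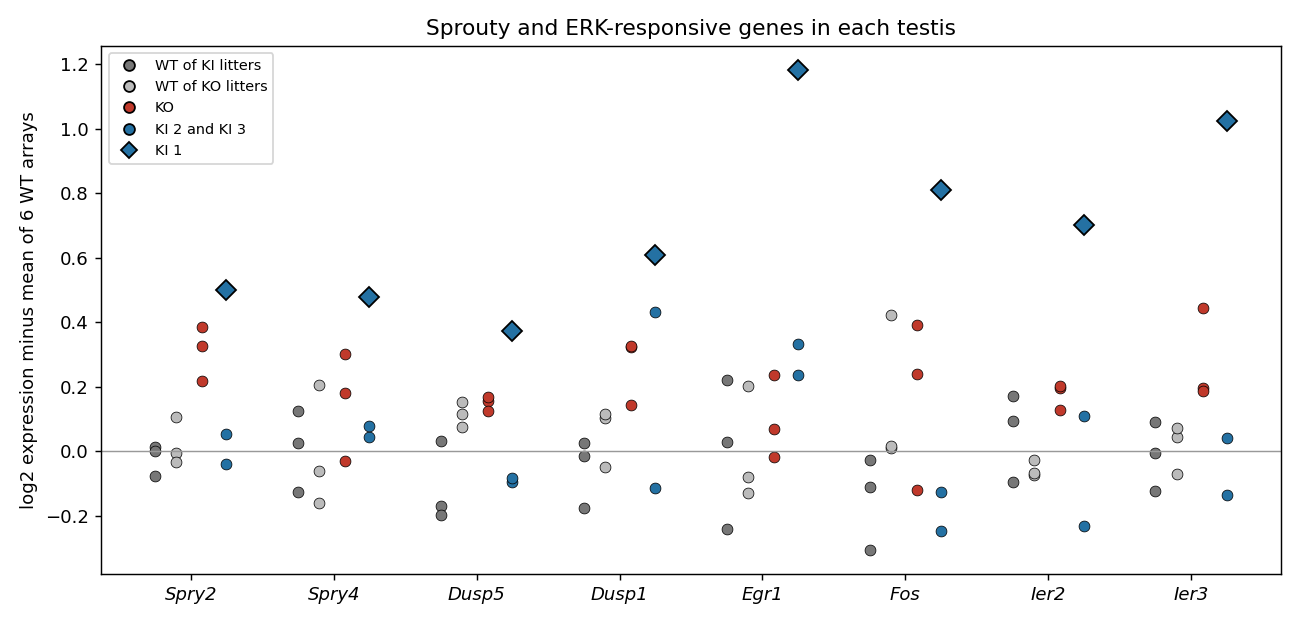
Log2 expression minus the mean of the 6 WT arrays (vertical axis) for Spry2, Spry4 and 6 ERK-responsive genes in each testis, with KI 1 as a diamond. KI 1 is the highest point for all 8 genes, which were chosen after their values were seen, among genes highest in KI 1. Of the 19 other feedback and target genes measured, KI 1 was highest for 8. KI 2 and KI 3 lie among or near the WT points for most of the genes shown.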

How the data were processed

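RNA of 12 whole testes was measured on Affymetrix whole-transcript arrays. The deposited values are log2 expression for 41345 transcript clusters. Tools listed per the submitters' processing notes were Partek 6.6, RMA and Affymetrix Expression Console, without their roles, and further upstream settings were not given in the sources used here. Although RMA usually includes a quantile normalization, the deposited arrays did not share 1 distribution exactly (medians over clusters from 5.74 to 5.82). Values are read as relative levels. Genes were assigned from the platform annotation, where 23521 clusters had 1 symbol, 1814 several and 16010 none. A gene with several clusters was read from that of highest mean.

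Two-sided moderated tests from limma 3.58.1 (R 4.3.3; lmFit, then eBayes) covered all 22180 genes and 12 arrays with 3 genotype groups, or the 4 label groups for litter comparisons, with Benjamini-Hochberg adjustment at 0.05. Alternatives changed the scaling, dim-gene filter, moderation, array weights, cluster choice, control litters and arrays used. Protein sequences were not used here. The script was tested on simulated data. The median 95% interval over all genes reached 0.22 to either side of a KO or KI difference from WT. The number of arrays limits the precision, as does a level near background.

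Named genes were the 10 members, pathway genes past the test (otherwise the 2 of highest mean in a list), and the 3 genes whose level correlated best with the member of smallest p. The members and lists were chosen with earlier results of these data known. Egr1 in KI testes, the genes shown for KI 1 and the immediate-early genes, Ccn1 among them, fall outside this rule and were chosen after their values were seen. Sdc1, Sdc2, Sdc3 and Gpc1 fall outside it too and are named as the other proteoglycan genes of their list.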

Additional observations from a re-analysis of the deposited data

Results flagged for a closer look

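Fgf2 in WT testes is given here because WT 5, at 5.77, lay far from the other 5 WT arrays (5.93 to 6.00), with a gap of 0.698 of the whole WT range. Chance alone marks about 1 in 20 groups of this kind, and the WT group was examined for 10 members. Without WT 5 the KO difference of Fgf2 was 0.17 (0.20 with it), and its limma adjusted p was 0.47 (0.337 with it).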

How the results depend on the processing

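No member passed in KO against WT in the reported fit. Under alternatives 1 member passed with a new quantile normalization (Dusp6), where 1134 of the 22180 genes passed. With trend and robust moderation 3 members passed, beside 2048 of the 22180 genes. With the mean of a gene's clusters 1 member passed, beside 1027 genes. With genes at or above the median level alone, 5 of the 6 members tested passed. There 2459 genes passed, out of that part of the genes only. Leaving out 1 array gave 0 to 3 members, and 2 to 2323 genes in all against 1078. The replicate number as a block, over the arrays numbered 1 to 3, gave 1 member (Dusp6, adjusted p = 0.0396), beside 1468 genes in all. The numbers share no stated origin, and same-numbered arrays deviated together with r from -0.03 to 0.16, so they were not read as pairs. In KI against KO the block called 247 genes, none of them members, genes at or above the median level 57, trend and robust moderation 5 and the covariate 1, where the reported fit called none. Leaving out 1 array gave up to 721 genes there and up to 50 between the WT litters. No member passed in KI against WT, KI against KO, between WT litters or in the difference of mutant effects under any alternative run. The KO differences changed sign for Fgf9 (-0.024 with own littermates, -0.021 with the spermatocyte covariate) and Fgf2 (-0.12 with the covariate). KI minus WT changed sign for Fgf9 (0.004 with quantile normalization, 0.044 with own littermates, 0.044 with the block), Fgf2 (-0.004 with own littermates, -0.004 with the block, -0.013 with the covariate) and Etv4 (-0.011 with WT of KO litters). KI minus KO with the covariate did so for Fgf2 (0.11), Spry2 (0.076) and Etv4 (0.025), Dusp6 between WT litters with the mean of clusters (0.014) and Spry4 in the difference of mutant effects with array weights (-0.045). Leaving out 1 array changed signs in KI minus WT for Fgf9 (-0.075 to 0.007) and Spry1 (-0.074 to 0.03), in KI minus KO for Spry4 (-0.09 to 0.126) and Fgf2 (-0.364 to 0.007), between WT litters for Dusp6 (-0.111 to 0.077), Spry4 (-0.064 to 0.119), Fgfr3 (-0.027 to 0.15) and Spry1 (-0.145 to 0.045), and in the difference of mutant effects for Spry4 (-0.104 to 0.112), Fgfr2 (-0.327 to 0.096), Fgfr1 (-0.101 to 0.068) and Spry2 (-0.26 to 0.01). None of these values passed. The covariate and the alternatives for the difference of mutant effects were chosen after seeing the data, and the causes were not tested. Levels near the background limit, as for Fgf9, limit what could be measured.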

Other observations

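High values in KI 1 were also seen among immediate-early genes outside the pathway lists. Of 21 such genes, chosen after the high KI 1 values were seen, KI 1 had the highest level of all 12 arrays for 10. KO 1 had it for 5, KO 3 for 4 and WT 4 for 2. The count for KI 1 rests on 1 array and on genes of a kind already seen to be high there. It is a description only. Over all genes KO 3 was the highest array for 25.4%, KO 1 for 11.7%, WT 4 for 7.25% and KI 1 for 6.24%. The orphan nuclear receptor gene Nr4a1 was 10.67 in KI 1, 7.77 and 8.64 in KI 2 and KI 3, 9.40, 8.52 and 9.45 in KO 1, KO 2 and KO 3, and 7.86 to 9.20 in WT arrays. The antiproliferative gene Btg2 was 8.16 in KI 1, 6.89 and 6.96 in KI 2 and KI 3, 7.25 to 7.67 in KO and 6.72 to 7.19 in WT arrays. Junb, an AP-1 subunit gene, was 7.52 in KI 1 and 6.11 to 6.48 in all other arrays.

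In KO testes 2 of the same 21 genes rose, against 2.52% of all genes, and neither passed against the KO littermates alone (limma adjusted p = 0.191 for Egr3 and 0.219 for Jund). Egr3, a transcription factor gene of the Egr1 family, differed by 0.36 (SE 0.08, limma adjusted p = 0.0368). Jund, another AP-1 subunit gene, differed by 0.47 (SE 0.12, limma adjusted p = 0.0418), and its WT arrays of KI litters lay below those of KO litters without overlap (difference -0.25). The matricellular protein gene Ccn1 was at 0.41 (SE 0.11, limma adjusted p = 0.0509).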
